A study of Mus musculus with 6 samples.

Results

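The tumour necrosis factor (TNF) superfamily was followed through 10 genes, of 24147 in the deposited tables, in the mouse lens epithelium before and after a model of cataract surgery. They were chosen by name, with earlier results of these data known, so counts and medians over them describe these genes and not the whole family. The 10 are the ligands Tnf and Tnfsf9, the receptors Tnfrsf1a, Tnfrsf1b, Tnfrsf9, Tnfrsf10b, Tnfrsf12a, Fas and Cd40, and the TNF-induced gene Tnfaip2. All 10 had a line of their own in the tables. RNA came from lens capsules with their attached lens epithelial cells (LECs) from wild type C57BL/6 mice 2 months old, whose lens fiber cells had been removed through a cut in the cornea. In 1 group the tissue was taken directly after the operation (0 h, 3 libraries), and in the other it was taken 24 h later (24 h, 3 libraries). All libraries came from operated eyes, so the 0 h libraries are the baseline and no unoperated lens is compared here. Sources used here do not say how many animals or eyes made up a library.

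TNF superfamily ligands are trimeric proteins, most of them made on the cell surface, that bind receptors with cysteine-rich repeats outside the cell. Some receptors, such as those encoded by Tnfrsf1a, Fas and Tnfrsf10b, carry a death domain and can start a caspase cascade, while others bind TRAF adaptors directly and signal to NF-kB and to kinases. In wounded epithelia the family is known for controlling inflammatory gene expression and cell survival.

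Library totals were 8069314 to 10862573 counts, and 16248 to 16962 genes had at least 1 read per library. At these depths 3 reads correspond to 0.301 to 0.384 counts per 1000000 (CPM). CPM values are scaled between libraries by TMM, a method that assumes that most genes keep their level, and are given with the SD of 3 libraries. Markers of the labelled tissue were present: all 10 lens epithelium markers passed the filter on low counts. Among them was Cryaa at 88071 CPM at 0 h and 46170 CPM at 24 h, a difference that was not called (edgeR adjusted p = 0.0746). Of these 10 markers, 7 were lower at 24 h and 0 were higher, beside 13.0% lower and 15.2% higher among all genes tested. Their summed level was 85631 to 144829 CPM at 0 h and 52804 to 66274 CPM at 24 h. Most of that sum was Cryaa and Cryab (25173 CPM at 0 h and 11497 CPM at 24 h), so it says little about the other markers. Besides Cryaa, the markers not called were Cdh1, at 380 ± 73.6 and 363 ± 54.6 CPM (edgeR adjusted p = 0.833), and Pax6 (adjusted p = 0.0946). Cdh1 and Pax6 were named after their values were seen. In bulk tissue, fewer cells of a type and less RNA per cell cannot be told apart. No source used here says that the libraries came from separate animals beyond calling them biological replicates, so p-values measure the spread between these libraries.

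Transcripts of 9 of the 10 genes rose between 0 h and 24 h, and the fitted fold change was above 1 for all 10. Across all 13956 genes tested with edgeR's quasi-likelihood test, 15.2% were higher and 13.0% lower at a Benjamini-Hochberg adjusted p under 0.05, while 0 of the 10 members were lower, also at an unadjusted p under 0.05 and with DESeq2 and limma-voom. With 10 genes and 13.0% of all genes lower, this 0 is no result about the members. The rises ranged from Tnfrsf10b, at 1.80-fold, to Tnfaip2, at 88.7-fold. Tnfsf9, the ligand of the Tnfrsf9 receptor, was the member that was not called. For the same 9 genes every 24 h library lay above every 0 h library, which held for 22.9% of all genes tested. The median log2 fold change was 1.95 over the 10 genes and -0.03 over all genes tested. All 10 genes passed the filter on low counts, but Tnf, Tnfrsf9, Cd40 and Tnfaip2 reached its minimum in no 0 h library and passed through their 24 h counts. Such genes had to be higher at 24 h to be tested at all, so their direction is a description. Of the 6 genes that reached the minimum in every 0 h library, 5 rose and 1 was not called. Under other normalizations or tools, 9 members were again higher, beside 14.7% of all genes with limma-voom, 15.4% with RLE factors and 16.6% each with DESeq2 and library totals. The same count came without the low-count filter, beside 11.5% of genes. In a test against a 1.5-fold change 7 members were higher, beside 7.60% of genes. Leaving out 1 library left 7 to 8 members higher, beside 10.9% to 13.3% of genes (11.7%, 12.6% and 13.1% among them).

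**Figure D1:**
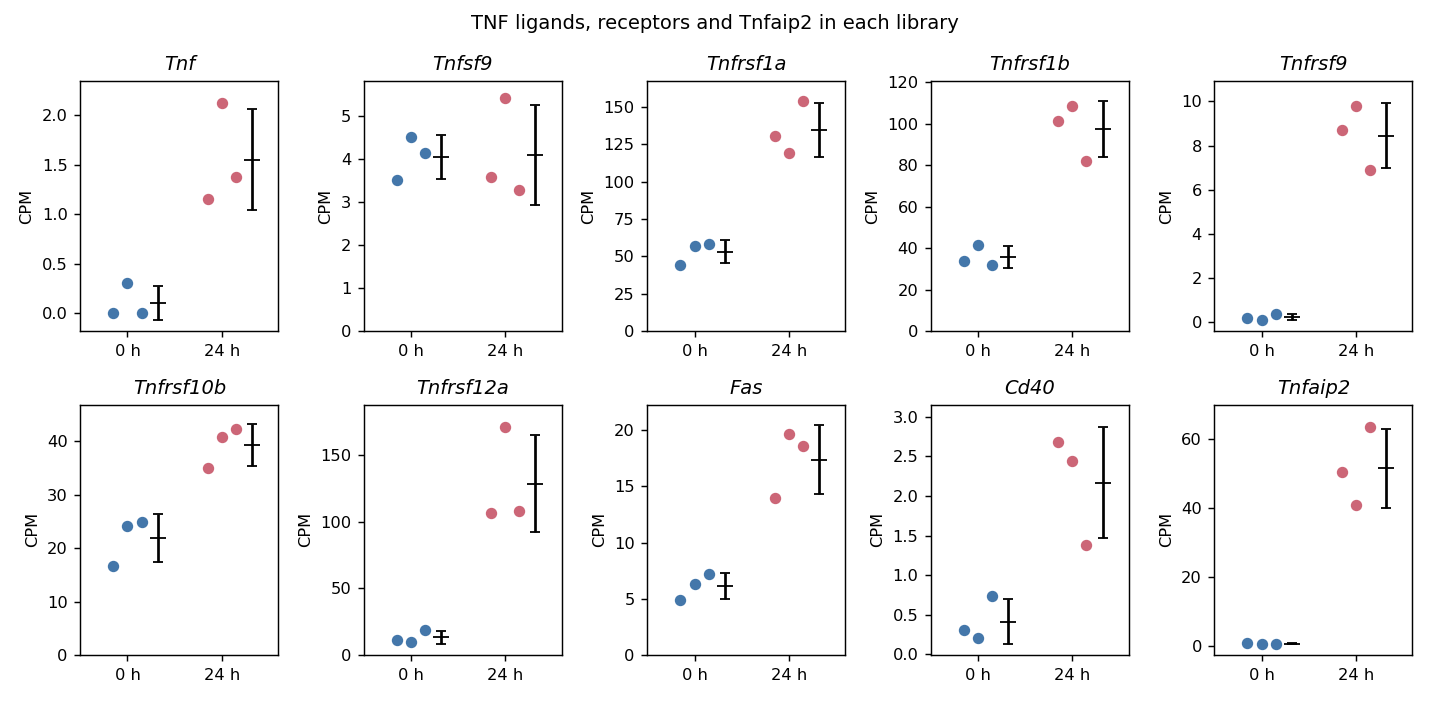
TMM-scaled counts per 1000000 (CPM, y axis, a separate linear scale for each gene) of the 10 genes in the 3 libraries at 0 h (blue) and the 3 at 24 h (red). Each point is 1 library and the bars give the mean and SD; the times overlap for Tnfsf9 and are apart for the other 9 genes.

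The stretches just before the start sites of 3 of these genes are shown. Their transcripts rose together, and each holds a match to a form searched for here. The forms are letter patterns for NF-kB and AP-1, transcription factors of the TNF response, and a match need not be a site they bind. The 3 genes were chosen after the values were seen. Promoter sequences from RefSeq (GRCm38.p6, the same assembly as mm10) were matched for 7 of the 10 genes, and the 250 bases before the start were searched on both strands for GGG, 5 bases of any kind and CC, an open NF-kB form, and for TGANTCA, an AP-1 form. Capitals mark matches, bases are written 5′ to 3′ along the gene, and for Tnfrsf12a the 19 bases next to the start were left out because another transcript's exon covers them. The sequences are chr17:35202008-35202257 (minus strand) for Tnf, chr17:23677469-23677699 (minus strand) for Tnfrsf12a and chr19:34290409-34290658 (plus strand) for Fas.
Tnf: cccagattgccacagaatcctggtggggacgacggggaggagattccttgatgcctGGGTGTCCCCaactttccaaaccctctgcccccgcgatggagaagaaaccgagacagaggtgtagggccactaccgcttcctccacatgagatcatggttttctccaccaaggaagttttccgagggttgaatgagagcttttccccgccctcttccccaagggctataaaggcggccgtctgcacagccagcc
Tnfrsf12a: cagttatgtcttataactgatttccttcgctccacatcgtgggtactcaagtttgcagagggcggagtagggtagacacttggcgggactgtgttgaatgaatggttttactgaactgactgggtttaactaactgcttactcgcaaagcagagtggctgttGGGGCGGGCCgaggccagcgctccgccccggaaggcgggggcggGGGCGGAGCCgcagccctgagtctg
Fas: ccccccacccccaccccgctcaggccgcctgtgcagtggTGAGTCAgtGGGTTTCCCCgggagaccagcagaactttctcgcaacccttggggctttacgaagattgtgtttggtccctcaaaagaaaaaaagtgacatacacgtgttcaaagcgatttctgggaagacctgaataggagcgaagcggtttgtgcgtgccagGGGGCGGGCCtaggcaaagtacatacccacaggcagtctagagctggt

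In Tnf the match GGGTGTCCCC lies 194 to 185 bases before the start and reads as the form on both strands. In Fas, GGGTTTCCCC lies 202 to 193 bases before the start and the AP-1 form TGAGTCA lies 211 to 205 bases before it, 2 bases apart. The matches in Tnfrsf12a, GGGGCGGGCC and GGGCGGAGCC, are rich in G and C, as is GGGGCGGGCC in Fas, 48 to 39 bases before the start. The form leaves its middle bases open, so these matches are not shown to be NF-kB sites. At their first start site, 6 of the 7 genes held the NF-kB form, and Fas held the AP-1 form. In this count bases covered by exons were kept: all matches of Tnfaip2 lie in an annotated exon of that gene, and that of Tnfrsf1a partly does. Across 32851 RefSeq promoters the NF-kB form stood in 45.8% and the AP-1 form in 6.75%, so a match of the first kind is common. Tnfrsf9 had no match before its first start, while before a start site further inside the gene it held GGGATTTCCC and TGAGTCA. Both of these lie in an annotated exon of Tnfrsf9. These matches are a description of letters and no binding was measured.

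Among the ligands, Tnf was scarce at both times. Tnf, the founding cytokine of the family (mm10, chromosome 17, 35199367 to 35202007), had 0, 3 and 0 reads in replicates 1 to 3 at 0 h and 9, 20 and 13 reads at 24 h. These reads correspond to 0.1002 ± 0.174 CPM and 1.55 ± 0.510 CPM (SD, n = 3 each). All 3 reads of the fresh tissue were in 1 library, and each 24 h library was above it. The ratio of summed reads was 14.8, with an exact 95% counting interval of 4.72 to 74.5, and edgeR gave an adjusted p of 0.0234. The 3 reads of the 0 h group set this value: without 0 h replicate 2 none were left and the fitted log2 fold change went from 3.72 to 6.81. The call of Tnf ended when replicate 1 or replicate 3 of the 0 h group was left out (adjusted p = 0.0757 and 0.0818), and likewise when 24 h replicate 2 was (adjusted p = 0.0663).

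Tnfsf9 encodes 4-1BB ligand, a costimulatory molecule of antigen-presenting cells. Its levels were 3.51, 4.51 and 4.15 CPM at 0 h and 3.58, 5.42 and 3.28 CPM at 24 h. The 2 times overlapped, and the log2 fold change was 0.015 with a 95% interval of -0.81 to 0.84 (edgeR adjusted p = 0.980). That interval still holds a rise of up to 1.78-fold and a fall of up to 1.75-fold. A long noncoding RNA on the opposite strand overlaps the start of Tnfsf9 in GENCODE M21. No source used here states the strand setting of the counting, so reads of such a pair may have been mixed.

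Of the 16 other TNF superfamily ligands, 5 passed the filter, and 1 of these was higher and 0 lower, beside 15.2% and 13.0% of all genes tested. The higher one passed the filter through its 24 h counts alone, so its direction is a description, and of the other 4 none was called. It was Tnfsf14, which encodes LIGHT, a ligand of the receptors made from Ltbr and Tnfrsf14. It had 0 reads in every 0 h library and 11, 14 and 13 reads at 24 h, at least 13.4-fold higher against 3 reads over the group (edgeR adjusted p = 0.00667). Tnfsf10, which encodes the death ligand TRAIL, had the next lowest p in the list. It was measured at 30.4, 37.6 and 29.8 CPM at 0 h and at 25.96, 11.2 and 24.95 CPM at 24 h, below all 0 h libraries but not called (adjusted p = 0.137). Reads of Cd40lg and Cd70, named after their counts were seen, were absent from all 6 libraries, which allows up to 0.301 to 0.384 CPM in a library.

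The 3 members with a death domain, Tnfrsf1a, Fas and Tnfrsf10b, rose by between 1.80-fold and 2.84-fold. Tnfrsf1a encodes the broadly expressed TNF receptor 1 (chromosome 6, 125349723 to 125362483). It was measured at 44.5, 56.7 and 58.2 CPM at 0 h and at 131, 119 and 154 CPM at 24 h. The lowest 24 h library, replicate 2, was well above the highest 0 h library, and the rise was 2.53-fold (95% interval 1.96 to 3.27, edgeR adjusted p = 0.000649).

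Fas, whose protein triggers apoptosis when bound by Fas ligand (chromosome 19, 34290659 to 34327770), went from 4.91, 6.31 and 7.20 CPM to 13.9, 19.6 and 18.6 CPM. That rise was 2.84-fold (1.91 to 4.21, adjusted p = 0.00291). The gene of its ligand, Fasl, named after its values were seen, had 2 reads at 0 h and 0 reads at 24 h. Tnfrsf10b, the TRAIL receptor of the mouse (chromosome 14, 69767472 to 69784411), was at 16.6, 24.0 and 24.9 CPM at 0 h and 34.9, 40.9 and 42.3 CPM at 24 h. It rose the least of the called members, 1.80-fold (1.34 to 2.43, adjusted p = 0.0112), and lost its call in a test against 1.5-fold (adjusted p = 0.173).

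Among the 7 receptors, those without a death domain included the largest fold change, that of Tnfrsf9, and the highest level at 24 h, that of Tnfrsf12a. Tnfrsf12a encodes Fn14, the receptor of the cytokine TWEAK and a known injury-induced gene (chromosome 17, 23675445 to 23677449). It had 111, 100 and 153 reads at 0 h and 836, 1609 and 1022 reads at 24 h, or 11.1, 10.02 and 18.7 CPM against 107, 171 and 108 CPM. Replicate 2 stood highest at 24 h, and every 24 h library was far above the highest 0 h library. The rise was 9.74-fold, a log2 fold change of 3.28 ± 0.29 (SE, adjusted p = 0.000168). Tnfsf12, which encodes TWEAK and was chosen for display after its values were seen, averaged 11.7 ± 2.34 CPM before and 14.7 ± 4.54 CPM after the 24 h, a difference that was not called (adjusted p = 0.418).

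Tnfrsf9 encodes 4-1BB, a costimulatory receptor best known from activated T cells (chromosome 4, 150920155 to 150946102). It had 2, 1 and 3 reads at 0 h and 68, 92 and 65 reads at 24 h. In CPM it went from 0.222 ± 0.134 to 8.45 ± 1.47, a log2 fold change of 5.21 ± 0.50 (SE, adjusted p = 0.000233). Tnfrsf9 lies inside the gene Camta1 on the opposite strand. Beside it, of the 15 lymphocyte markers found, 0 passed the filter. Their summed level was 1.30 to 2.20 CPM at 0 h and 1.37 to 2.66 CPM at 24 h, and Cd3g, Ncr1 and Klrb1c had no read in any library. Which cells the Tnfrsf9 reads came from was not tested.

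Tnfrsf1b encodes TNF receptor 2, which binds TRAF2 (chromosome 4, 145212368 to 145246870). Its levels were 33.7, 41.6 and 31.8 CPM at 0 h and 101, 108 and 82.2 CPM at 24 h, a 2.72-fold rise (2.102 to 3.52, adjusted p = 0.000491). Per length, the ratio of Tnfrsf1b to Tnfrsf1a was 0.298 ± 0.0504 at 0 h and 0.324 ± 0.0836 at 24 h, values that overlapped. Cd40, a receptor of B cells and other antigen-presenting cells that some epithelia also make (chromosome 2, 165055636 to 165071654), had 3, 2 and 6 reads at 0 h and 21, 23 and 13 reads at 24 h. Its log2 fold change was 2.40 ± 0.66 (SE, adjusted p = 0.0269), and it was 3.07 without 0 h replicate 3. The call of Cd40 was lost against a 1.5-fold change (adjusted p = 0.0658). Leaving out either of replicates 1 and 2 at 0 h also ended it (adjusted p = 0.0880 and 0.101), as did leaving out either of replicates 1 and 2 at 24 h (adjusted p = 0.0775 and 0.0677).

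Tnfaip2, a gene induced by TNF whose protein acts at the plasma membrane (chromosome 12, 111442661 to 111455018), showed the largest rise of the 10. It had 7, 5 and 4 reads at 0 h and 394, 383 and 600 reads at 24 h. On the CPM scale this was 0.563 ± 0.120 against 51.5 ± 11.4, a log2 fold change of 6.47 ± 0.29 (SE, adjusted p = 1.07e-05). GENCODE places an antisense transcript over part of Tnfaip2.

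**Figure D2:**
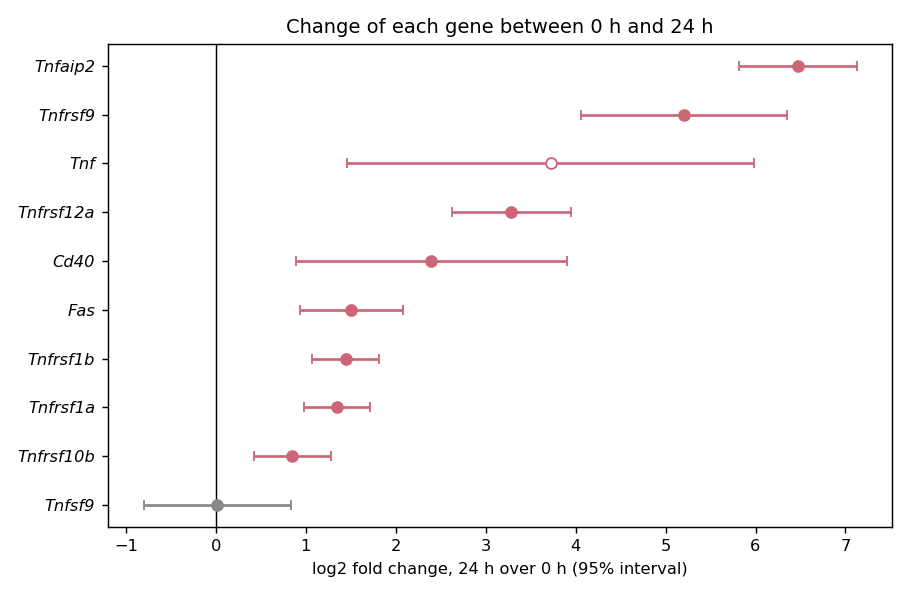
Fitted log2 fold change of each gene, 24 h over 0 h (x axis), with its 95% interval from edgeR's quasi-likelihood fit to 3 libraries per time. Red marks the 9 genes called higher and grey Tnfsf9; the open point is Tnf, whose fitted value of 3.72 rests on 3 reads at 0 h, and the intervals of Tnf and Cd40 are the widest.

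Levels of different genes were compared as RPKM, which divides the scaled reads by gene length and library size. At 0 h the order among the 10 genes was Tnfrsf1a (24.7 ± 3.49), Tnfrsf12a (13.8 ± 4.88), Tnfrsf1b (7.27 ± 1.054), Tnfrsf10b (6.88 ± 1.43), Fas (3.41 ± 0.641) and Tnfsf9 (3.30 ± 0.413), with Cd40, Tnfaip2, Tnfrsf9 and Tnf each at a mean of 0.230 RPKM or less. Tnfrsf1b and Tnfrsf10b overlapped, as did Fas and Tnfsf9, and as did neighbours among the last 4. At 24 h Tnfrsf12a stood first at 133 ± 37.9 RPKM, above Tnfrsf1a at 62.4 ± 8.23 RPKM in every library. Tnfrsf1b (19.8 ± 2.75), Tnfaip2 (14.4 ± 3.20) and Tnfrsf10b (12.4 ± 1.23) followed, each overlapping the next, and then Fas (9.66 ± 1.69). Tnfrsf9 (3.80 ± 0.660) overlapped Tnfsf9 (3.33 ± 0.941), and Cd40 (1.22 ± 0.391) overlapped Tnf (0.938 ± 0.308) at the end of the order.

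The make-up of receptor transcripts shifted with these changes. Summed over the 28 receptors listed, RPKM went from 209 ± 29.9 at 0 h to 429 ± 40.7 at 24 h. The 7 receptors described here held 26.9% ± 1.55 of that sum at 0 h and 56.3% ± 3.01 at 24 h (SD, n = 3 each). As these 7 were chosen with earlier results known, the shift in their share is a description. Tnfrsf12a alone went from 6.56% ± 1.88 to 30.7% ± 5.63, from rank 5 to rank 1. Tnfrsf21, which encodes death receptor 6, went from rank 1 with 24.2% ± 6.64 to rank 5 with 5.95% ± 1.93. Ngfr, the low-affinity neurotrophin receptor, held 21.8% ± 6.65 and 13.7% ± 2.22, and its own level was not called (adjusted p = 0.106; named after its values were seen). Shares are tied to each other, so a rise in one lowers the rest.

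**Figure D3:**
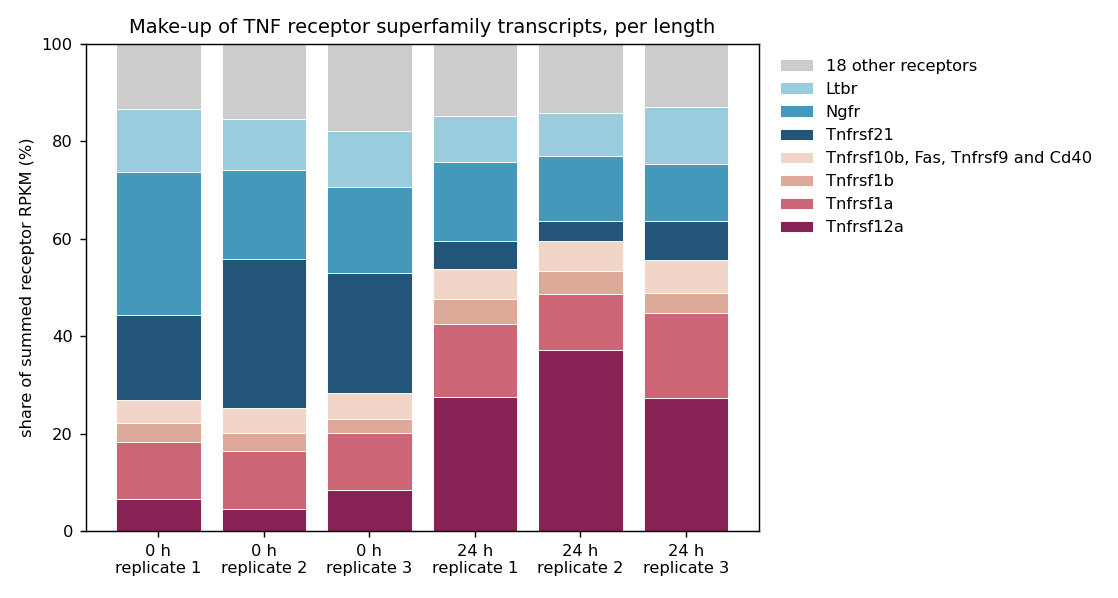
Share of summed RPKM (y axis, percent) held by TNF receptor superfamily genes in each of the 6 libraries (x axis). The red shades, for the 7 receptors described here, take 25.3% to 28.4% of the bar at 0 h and 53.7% to 59.6% at 24 h.

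Of 21 other receptors of the family, 15 passed the filter, and 7 of these were higher and 1 was lower. Their median log2 fold change was 0.83, and among all genes tested 15.2% were higher and 13.0% lower. Eda2r and Tnfrsf11b reached the filter's minimum in no 0 h library and could be tested only if higher at 24 h; of the other 13, 5 were higher and 1 lower. Eda2r, a receptor for an ectodysplasin isoform, had 3, 5 and 4 reads at 0 h and 102, 203 and 188 reads at 24 h, a log2 fold change of 5.37 ± 0.37 (SE, adjusted p = 5.71e-05). Relt rose from 2.60 ± 0.876 to 13.2 ± 2.94 CPM (adjusted p = 0.00148). Tnfrsf11b, which encodes the secreted decoy receptor osteoprotegerin, had 0 reads in every 0 h library and 34, 52 and 27 reads at 24 h, at least 39.7-fold higher against 3 reads over the group (adjusted p = 0.00152). The gene that was lower was Tnfrsf21, at 110, 247 and 206 CPM at 0 h and 83.9, 71.3 and 118 CPM at 24 h. It fell by 1.04 on the log2 scale (adjusted p = 0.0330), and its groups overlapped. Tnfrsf21 was not called under 6 of 13 alternatives: with library totals only (adjusted p = 0.0528), against a 1.5-fold change (adjusted p = 0.171), and on leaving out replicate 2 or 3 of the 0 h group, or replicate 1 or 2 of the 24 h group (adjusted p = 0.1004 to 0.1048). Tnfrsf11b and Tnfrsf21 were named after their values were seen. Tnfrsf22, Tnfrsf23 and Tnfrsf26 are close copies in 1 cluster, so reads could have been split between them.

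Of 24 adaptors, ubiquitin enzymes and kinases that act below the receptors, 23 were tested, and 5 were higher and 1 lower, beside 15.2% higher and 13.0% lower among all genes tested, with a median log2 fold change of -0.02. Birc3, a ubiquitin ligase of the receptor complex that is also an NF-kB target, was at 1.503, 4.01 and 1.95 CPM at 0 h and 12.9, 17.7 and 17.2 CPM at 24 h. All 24 h libraries were above all 0 h libraries, and the rise was 6.36-fold (adjusted p = 0.00149). Map3k14, the kinase NIK of the noncanonical NF-kB route, rose 2.15-fold to 25.9 ± 6.03 CPM (adjusted p = 0.00527). The others that rose were Traf2, Traf3 and Rnf31, and the one that fell was Map3k5, an apoptosis-signalling kinase at 92.2 ± 5.81 and 64.2 ± 5.07 CPM (adjusted p = 0.0157), these 4 named after their values were seen. Map3k5 lost its call without replicate 2 or replicate 3 of the 0 h group (adjusted p = 0.0548 and 0.0596), and against a 1.5-fold change.

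In the list for the death arm, 9 of 10 genes were tested. Of these, 3 were higher and 1 lower, beside 15.2% and 13.0% of all genes tested, and the median log2 fold change was 0.25. Mlkl passed the filter through its 24 h counts alone, and of the other 8 genes 2 were higher and 1 lower. Mlkl, which carries out necroptosis, had 0, 0 and 1 reads at 0 h and 82, 53 and 35 reads at 24 h. The ratio of its summed reads was 179, with an exact 95% counting interval of 31.8 to 7124 (edgeR adjusted p = 0.000794). The single 0 h read was in replicate 3, and the fitted log2 fold change went from 7.06 to 8.95 without that library. Casp8, the first caspase downstream of death receptors, rose 3.57-fold from 6.25 ± 1.47 to 22.4 ± 3.04 CPM (adjusted p = 0.000908). Xiap, an inhibitor of caspases named after its values were seen, went from 159 ± 15.8 to 111 ± 9.55 CPM (adjusted p = 0.0254). Its call was lost when any 1 of the 6 libraries was left out (adjusted p = 0.0532 to 0.0845), with library totals only and against a 1.5-fold change.

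Of 10 genes named for induction by TNF or encoding proteins that bind A20, the product of Tnfaip3, 6 were tested. Of these, 2 were higher and 0 lower, beside 15.2% and 13.0% of all genes tested, with a median log2 fold change of 0.66. Tnfaip3, which encodes the NF-kB inhibitor A20, was at 23.5, 40.4 and 19.6 CPM at 0 h and 82.2, 95.2 and 68.0 CPM at 24 h, a 2.93-fold rise (adjusted p = 0.00340). Tnip1, whose protein binds A20, rose 2.48-fold to 67.9 CPM (adjusted p = 0.000423). All 5 genes listed for shedding were tested, 1 was higher and 0 lower, with a median log2 fold change of -0.03. That count is near the 15.2% of all genes called higher, and both lists are short. The higher one was Rhbdf1, a partner of the protease that releases TNF, which rose 1.65-fold (adjusted p = 0.00584) but not beyond 1.5-fold in the test against that size (adjusted p = 0.278). Rhbdf2 was at 27.7 ± 3.78 and 38.7 ± 7.82 CPM (adjusted p = 0.0904). In the lists of ligands, TNF-induced or A20-binding genes and shedding genes, 0 were also lower at an unadjusted p under 0.05 and with DESeq2 and limma-voom. With 5 or 6 genes tested per list and 13.0% of all genes lower in the main test, this 0 is no result about these lists. Among the 10 lens epithelium markers 0 were likewise higher under these settings, beside 15.2% of all genes in the main test.

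**Figure D4:**
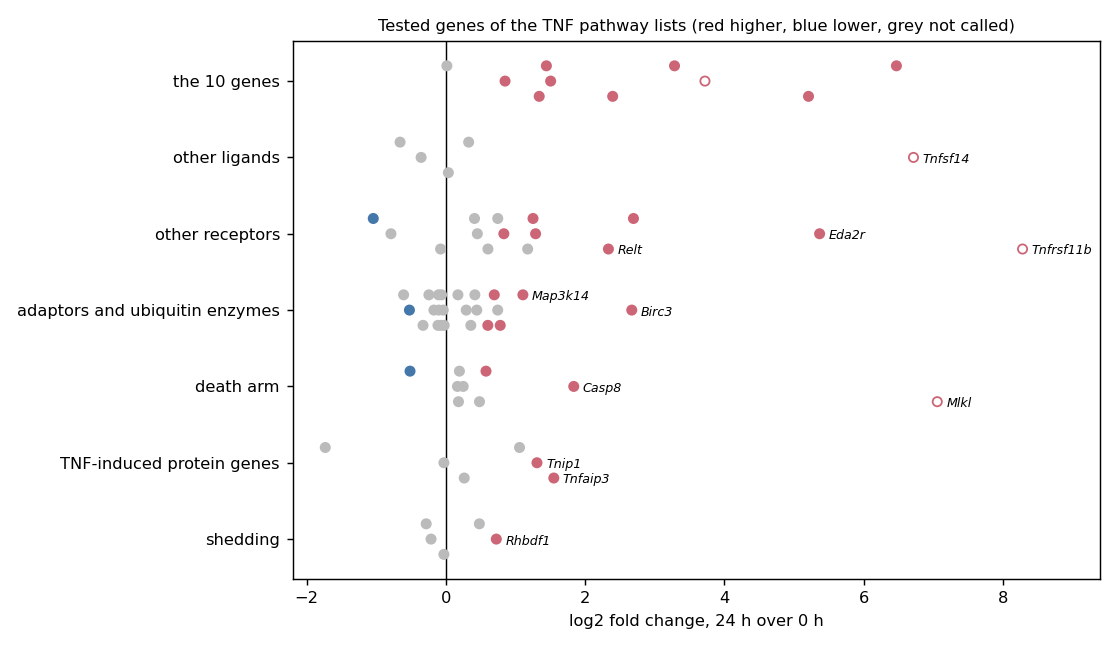
Log2 fold change, 24 h over 0 h (x axis), of every tested gene in the 7 lists (y axis; vertical offsets within a list carry no meaning). Red is higher, blue lower and grey not called; open points (Tnf, Tnfsf14, Tnfrsf11b and Mlkl) had 3 reads or fewer over the 0 h group, so their fitted positions are no bounds, and most adaptors lie near 0.

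Markers of immune cells moved beside these genes. The counts of called markers stand beside 15.2% higher and 13.0% lower among all genes tested. Of 13 neutrophil markers found, 7 were tested and all 7 were higher, 3 of them (S100a8, S100a9 and Retnlg) having passed the filter through their 24 h counts alone. The summed level of the list was 8.52 to 17.2 CPM at 0 h and 115 to 219 CPM at 24 h. Of the untested ones, named after their values were seen, Elane had no read in any library. Summed reads of Mpo (1 to 3), Camp (2 to 2), Ngp (0 to 3) and Fpr1 (18 to 23) came from groups that overlapped. Those of Mmp8 (0 to 40) came from groups that did not. Csf3r, a receptor of neutrophils, went from 1.98 ± 0.499 to 37.6 ± 10.7 CPM, and Itgam, an integrin of neutrophils and macrophages, from 3.70 ± 3.17 to 37.3 ± 20.6 CPM. Of 15 macrophage markers found, 14 were tested, 4 were higher and 4 lower (3 and 2 with limma-voom, 4 and 5 with DESeq2), with a summed level of 81.6 to 192 CPM at 0 h and 144 to 287 CPM at 24 h; none was at 0 in all libraries. Of the higher ones, Ccr2 passed the filter through its 24 h counts alone, and Itgam was also counted among the neutrophil markers. Lyz2, a lysozyme gene, had means of 16.3 ± 4.13 and 29.5 ± 17.6 CPM with no call (adjusted p = 0.142), and Csf1r, a receptor of macrophages, was lower (31.9 ± 13.6 and 12.5 ± 5.50 CPM). Of 8 dendritic cell markers 2 were tested: Itgax was higher and Zbtb46 was not called, and the summed level was 4.91 to 7.44 CPM at 0 h and 7.97 to 10.1 CPM at 24 h. The untested ones, named after their values were seen, went both ways. Summed reads fell for Siglech (53 to 13), Flt3 (11 to 2) and Xcr1 (23 to 17). They rose for Clec9a (1 to 4), Cd209a (0 to 4) and Ccr7 (0 to 2). Tnf, Tnfrsf1b, Tnfrsf9, Tnfsf14 and Cd40 are known in leukocytes as well as in other cells. Of 10 lens fiber markers 9 were tested and 8 were lower, with a summed level of 36622 to 68100 CPM at 0 h and 17613 to 20038 CPM at 24 h. Of 12 ciliary body, iris and retina markers, all tested, 3 were higher (1 with limma-voom, 3 with DESeq2, and none with groups that did not overlap) and 3 lower (1920 to 5597 CPM and 1673 to 4267 CPM), and of 10 vessel and fibroblast markers 9 were tested, 3 were higher and 2 lower (647 to 1021 CPM and 269 to 670 CPM). The part of these cells in the changes above was not tested.

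Not all genes peaked in the same library. Within the 24 h group, 6 of the 10 genes were highest in replicate 2, 3 in replicate 3 and 1 in replicate 1, while within 0 h, 6 were highest in replicate 3. Tnfaip2 and Tnfrsf1a were highest in 24 h replicate 3, where Tnfrsf1b and Tnfrsf9 were lowest of the 24 h libraries.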

How the data were processed

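Counts per gene were analysed in 6 libraries, 3 at 0 h and 3 at 24 h. Per the submitters' processing notes, the authors' tools included Trim Galore 0.4.4 and FastQC on reads, TopHat2 2.1.0 with mm10, HTSeq 0.6.1p1, SAMtools 1.4, bedtools 2.17 and edgeR 3.16.5. The authors deposited whole-number read counts and RPKM values per gene, with position and length, per the file headers. Strand setting and annotation: not given in the sources used here. The deposited RPKM equal counts divided by length and by the library's summed counts, to within rounding.

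Genes were filtered with filterByExpr (at least 10 reads in the median library, or 1.11 CPM, in 3 libraries), scaled by TMM and tested with edgeR 4.0.16 in R 4.3.3 by the quasi-likelihood test, two-sided, with no covariate. Benjamini-Hochberg adjustment ran over the 13956 tested genes, with calls at an adjusted p under 0.05. Standard errors come from the log2 fold change and the F statistic (its square root as divisor). RPKM in the text are from TMM-scaled counts. With 1 to 3 reads at 0 h a ratio of summed reads with an exact 95% interval is given, and with 0 reads a bound against 3 reads. The list medians were the same with such genes at their bounds. Intervals and bounds from reads cover counting error only, and reads copied in PCR count as separate.

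The members and lists were chosen with earlier results of these data known. The 6 lists of other pathway genes hold 86 genes, of which 63 were tested. Of these, 19 were higher and 3 lower, beside 15.2% and 13.0% of all genes tested. Named genes were all 10 members, the 2 tested genes of lowest p in each pathway list, the 2 highest genes of each marker list, and the 3 genes nearest to Tnf, Tnfrsf12a and Tnfaip2; other genes were named after their values were seen. Nearness is the Euclidean distance of centred log2 CPM (prior count 2). Alternatives used DESeq2 1.42.0, limma-voom (limma 3.58.1), RLE factors, library totals, no filter, a 1.5-fold threshold, a replicate block, and each library left out.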

Additional observations from a re-analysis of the deposited data

How the results depend on the processing

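The count of members called higher was 9 with DESeq2, limma-voom, RLE factors, library totals, no filter on low counts and the replicate block, 7 against a 1.5-fold change, and 7 to 8 when 1 library was left out. The count called lower was 0 throughout, beside 4.51% to 15.6% of all genes under these alternatives. With 10 members and such shares, this 0 is no result about the members. Tnfrsf1a, Tnfrsf1b, Tnfrsf9, Tnfrsf12a, Fas and Tnfaip2 stayed called under all 13 alternatives run. Of these, Tnfrsf9 and Tnfaip2, like Tnf and Cd40, reached the filter's minimum in no 0 h library. In fits with the filter they could be tested only if higher at 24 h, so their direction there is a description. Of the 6 members at the minimum in every 0 h library, 5 were higher in the main test. Against a 1.5-fold change 1689 genes were called in place of 3942. The fitted log2 fold change of Tnfsf9, near 0, turned negative with limma-voom (-0.00271), with the replicate block (-0.00799), without 0 h replicate 1 (-0.0503) and without 24 h replicate 2 (-0.239), within a leave-one-out range of -0.239 to 0.157. Tnf failed the low-count filter without 24 h replicate 3 and has no value there. Same-numbered libraries had residual correlations of 0.0866 to 0.397, 1 of them under 0.1, so the numbers were not taken as pairs. With the number as a replicate block 4489 genes were called, and 5 of 6 libraries correlated best with their own number, a hint from the data. Of 376 gene fold changes under alternatives, for 29 genes, 344 kept their direction and their side of the threshold, 28 lost the call and 4 changed sign. Where a call was lost the cause was not tested. Tnf and Cd40 had 20 or fewer and 23 or fewer reads in any library.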

Other observations

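The genes nearest in pattern were found by the distance between log2 CPM profiles over the 6 libraries, each centred on its mean. Nearest to Tnf were Birc3 at 0.469, Relt at 0.575 and Slc2a6, which encodes a hexose transporter, at 0.613. Their fitted log2 fold changes were 2.67, 2.33 and 2.71, against 3.72 for Tnf. The prior count of 2 makes differences of genes with few reads, such as Tnf, smaller in these profiles. The median distance of all tested genes from Tnf was 3.46. For Tnfrsf12a they were Slfn2 at 0.442, Tm4sf1, which encodes a membrane protein, at 0.488 and Hmga2, which encodes a chromatin protein, at 0.629, against a median of 4.20. Tm4sf1 had means of 11.1 and 128 CPM, near those of Tnfrsf12a on the same scale. Around Tnfaip2 stood Ccl7, a chemokine gene, at 0.610, Bcl3, which encodes a nuclear partner of NF-kB, at 0.677 and Timp1, which encodes an inhibitor of metalloproteases, at 0.985, against a median of 7.48. Ccl7 averaged 0.356 CPM at 0 h against 44.3 CPM later, and Bcl3 0.571 against 51.6 CPM. The distances describe 6 libraries in 2 groups, and genes with a similar difference between the times in these profiles come out near each other.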
